A study of Homo sapiens with 4 samples.

Results

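EGFR, MET, CAV1 and CAV2 are 4 protein-coding genes of chromosome 7 whose RNA was recovered in 10 peaks of the Flag-AKT1 E17K RIP-seq list, out of 4838 peaks in that list. A peak was counted as a member when it overlapped the GRCh38 span of one of these genes by at least 1 bp, introns included. Read counts were not used in that step. The list itself was made by a caller from the reads, and the genes were chosen with earlier results of these data known. All 10 lay wholly inside their gene, and none of them touched the span of another gene. EGFR held 6 peaks, MET 2, CAV1 1 and CAV2 1. The list for Flag-AKT1 WT had no peak on chromosome 7 among its 808 peaks, so these RNAs could not be compared between the plasmids.

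The libraries came from MDA-MB-231, a human breast cancer cell line, transfected with a plasmid for Flag-tagged AKT1 E17K or Flag-tagged AKT1 WT on top of the AKT1 gene that the cells already have. RNA bound by the Flag antibody was sequenced beside a control library for each plasmid, 4 libraries in all with 1 in each group, so no value here has a replicate check. The control column was read as the input library, which is how the samples are labelled, but the lists themselves leave it unnamed and control IgG is also mentioned in the study. Peaks for Flag-AKT1 E17K held 484463 immunoprecipitate and 248412 control reads, and 15.1% of the former lay at AKT1 itself, the gene that the plasmid carries.

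EGFR and MET are receptor tyrosine kinases, which sit in the plasma membrane and on binding a ligand recruit phosphoinositide 3-kinase. The lipid made by that kinase brings AKT1 to the membrane through its pleckstrin homology domain, the domain in which the E17K substitution lies. EGFR responds to epidermal growth factor and related ligands and MET to hepatocyte growth factor. CAV1 and CAV2 encode caveolins, membrane proteins that build caveolae, small pits of the plasma membrane in which receptors and signalling proteins gather. All 4 genes are known for strong expression in basal-like breast cancer cells such as MDA-MB-231.

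The cell line's known markers were looked up first. VIM, CD44 and AXL, genes of the mesenchymal state of these cells, each had at least 1 peak, with 2032, 39 and 331 immunoprecipitate reads. MSN and ANXA1 lie on chromosome strands without any peak in the list, where a lack of peaks tells nothing. ESR1, PGR, GATA3 and ERBB2, which this line expresses weakly or not at all, had 0 peaks on strands with at least 10 peaks. Those strands held 18, 754, 520 and 51 peaks in that order. The share of all genes that had a peak was not worked out. Neither these 0 counts nor the markers with a peak can therefore be read as a measure of expression. FOXA1 had 0 too, but the 5 peaks on its strand were all those of AKT1, so its 0 tells nothing either.

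Every member peak carried the strand label minus, whereas all 4 genes are read from the plus strand of chromosome 7. This was so for most of the list. Of the 145 minus-labelled peaks on chromosome 7 that lay in coding genes of a single known strand, 142 (97.9%, 95% Wilson interval 94.1% to 99.3%) lay in plus-strand genes. Over the whole Flag-AKT1 E17K list 3241 of 3280 such peaks (98.8%) had the label opposite to their gene, and over the Flag-AKT1 WT list 664 of 668 (99.4%). A minus label therefore went with a plus-strand gene, and the members were compared with the 169 other chromosome 7 peaks of that label. The antisense lncRNA EGFR-AS1, within the span of EGFR, and COMETT, beside MET, had 0 peaks.

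The submitters' processing notes name the build hg18, but the positions followed GRCh38. Of the 179 minus-labelled peaks on chromosome 7, 97.2% fell in a gene span of GRCh38.p14, compared to 67.6% and 51.4% after all of them were moved by 1000000 bp forwards and backwards. Positions along the genes given here rest on that reading, and exons and untranslated regions were not used here.

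EGFR peaks fell into 2 clusters. The 3 peaks nearer the start of the gene lay at chr7:55156481-55157095, chr7:55157711-55158120 and chr7:55165091-55165500. Their centres were 71.5%, 72.1% and 75.9% of the way along the 192.6 kb span. They held 61 immunoprecipitate and 35 control reads, 31 and 11, and 37 and 9. The immunoprecipitate library had the higher count in each of them. So it had in all 179 minus-labelled chromosome 7 peaks and in 4806 of the 4838 peaks of the list. The third of these EGFR peaks had the fewest control reads of all 10 member peaks.

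The other 3 EGFR peaks lay at the far end of the gene, at chr7:55206706-55207935, chr7:55208141-55208550 and chr7:55209781-55211420. Widths of all minus-labelled peaks on chromosome 7 were multiples of 205 bp, and these 3 peaks covered 16 of the 23 windows of that size between their outer edges. The last one ended 208 bp before the end of the span. They held 173 immunoprecipitate and 86 control reads, 69 and 42, and 215 and 97. With 457 immunoprecipitate reads, this end of the gene gave 78.0% of all EGFR reads in peaks. Per kb of peak it had 139.3 immunoprecipitate reads, compared to 89.9 in the first cluster. The control was denser at this end too, with 225 reads in 16 windows compared to 55 in 7 windows.

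**Figure D1:**
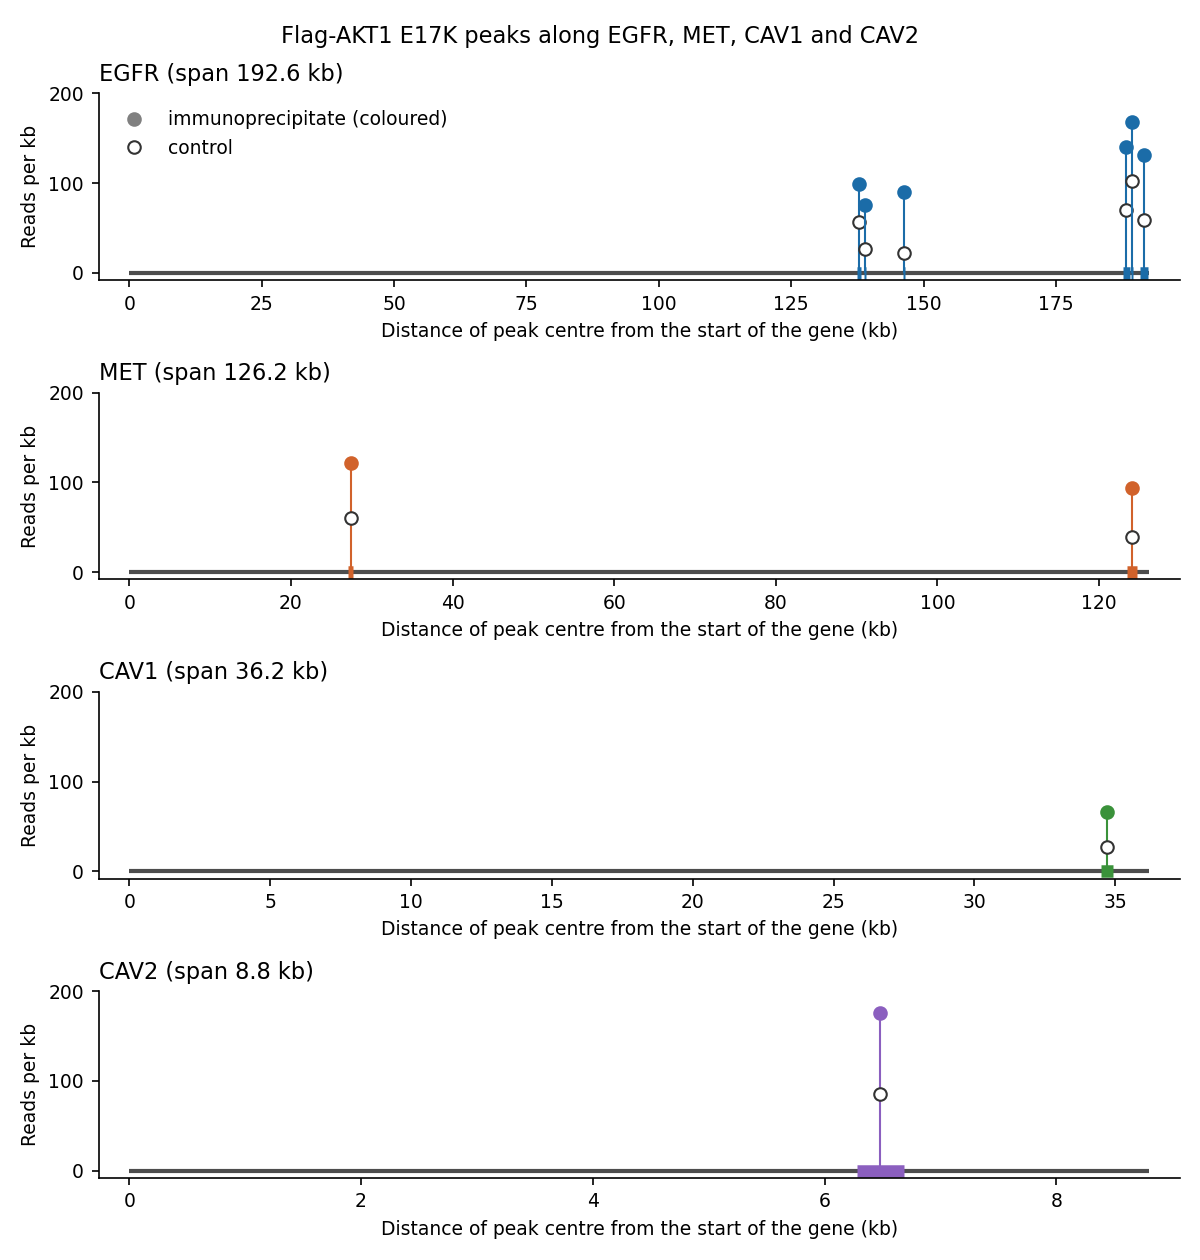
Peaks along each gene, with the distance of the peak centre from the start of the gene in kb on the x axis and reads per kb of peak on the y axis; filled points are the immunoprecipitate, open points the control, and thick bars on the grey line of the gene span show the width of each peak. EGFR has 3 peaks at 137.8 to 146.3 kb and 3 at 188.3 to 191.6 kb. The filled point lies above the open one in all 10 peaks, as it would in all 179 chromosome 7 peaks with the minus label.

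MET had 1 peak in the first part of the gene and 1 at its end. The peak at chr7:116699326-116699940 was centred 27.4 kb from the start, 21.7% along the span, and was the only member peak nearer the start of a gene than its end. It held 75 immunoprecipitate and 37 control reads. The peak at chr7:116795676-116796905, 98.3% along the span, held 115 and 48 reads. Per kb of peak MET had 103.0 immunoprecipitate reads, against 124.3 for EGFR.

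The caveolin genes lie beside each other and close to MET. The stretch of 290.9 kb from the CAV2 peak to the last MET peak held only the 4 member peaks and no plus-labelled peak. The CAV2 peak at chr7:116506011-116506420 held 72 immunoprecipitate and 35 control reads, and the CAV1 peak of the same width of 410 bp, at chr7:116559516-116559925, held 27 and 11. CAV2 thus had 175.6 immunoprecipitate reads per kb of peak and CAV1 65.9, the highest and the lowest density of the 10 peaks. CAV2 was also above CAV1 in the control, with 85.4 against 26.8 reads per kb, but there the highest and lowest densities, 102.4 and 22.0, belonged to EGFR peaks. In such bulk libraries more RNA per cell and more cells with the RNA cannot be told apart.

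The nearest minus-labelled peaks outside this stretch lay in TES, 247.2 kb before it with 113 immunoprecipitate and 67 control reads, and in CAPZA2, 120.7 kb after it with 51 and 15. EGFR stood more alone, with the nearest such peaks 7047.9 kb before it in UPP1 and 787.8 kb after it in NIPSNAP2.

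By their place in the gene the members resembled the other chromosome 7 peaks. The median position was 85.9% of the span for the 10 members and 87.5% for the 133 other minus-labelled peaks that lay in 1 plus-strand coding gene. Beyond 90% of the span lay 5 of the 10 member peaks and 44.4% of the others. Before 10% of it lay 0 member peaks and 0.752% of the others.

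Immunoprecipitate reads divided by control reads gave the fold. It is not scaled for the size of the libraries, which the lists do not give, so only differences between peaks of 1 list can be read from it. For EGFR as a whole, 586 immunoprecipitate and 280 control reads gave a fold of 2.09 (95% Wilson interval 1.82 to 2.41). MET had 190 and 85 reads and a fold of 2.24 (1.73 to 2.88). CAV1 had a fold of 2.45 (1.23 to 4.88) and CAV2 of 2.06 (1.38 to 3.07). The 4 intervals overlap, and that of CAV1 is the widest because it rests on the fewest reads. These intervals cover counting error only.

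**Figure D2:**
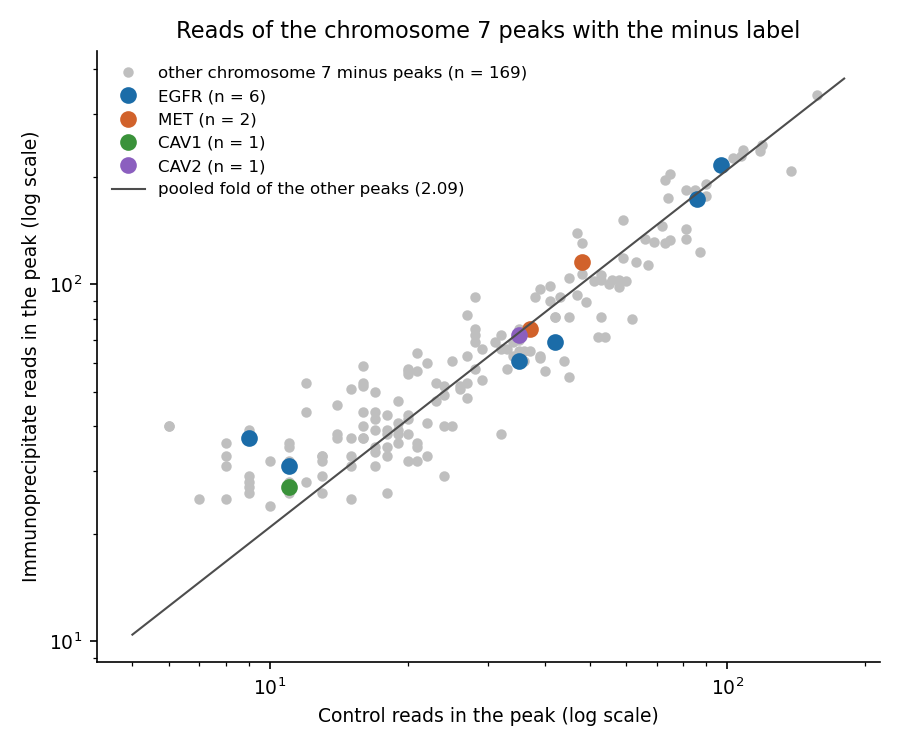
Control reads (x axis) and immunoprecipitate reads (y axis), both on log scales, of the 179 chromosome 7 peaks with the minus label; grey points are the 169 other peaks, coloured points the members, and the line marks the pooled fold of the other peaks, 2.09. The members lie along the line among the grey points, and peaks with few control reads lie above it.

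The other 169 peaks had a pooled fold of 2.09 too, and a median of 2.15 with quartiles of 1.85 and 2.57. The 10 members had a median fold of 2.14 and together 875 immunoprecipitate and 411 control reads, a fold of 2.13 (1.89 to 2.39). Of the 10 peaks, 5 were above and 5 below the median of all 179. The members made up 5.59% of these peaks, 6.58% of their immunoprecipitate reads and 6.48% of their control reads. Within these peaks the 2 shares of reads were thus close.

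A two-sided Fisher's exact test set the 2 counts of each peak against those of the rest of the list, with Benjamini-Hochberg adjustment over all 4838 peaks. The test compares 2 libraries and not conditions. In the list 13 peaks (0.269%) were past an adjusted p of 0.05, and 0 of the 10 member peaks were among them. Without adjustment 1 member peak had p under 0.05, beside 8.78% of all peaks. Against the chromosome 7 peaks of the same label, 0 of 179 peaks (0%) were past the threshold, members included, with 15 of the 179 peaks and 0 of the 10 members under 0.05 before adjustment.

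The single low p belonged to the EGFR peak at chr7:55165091-55165500. With 37 immunoprecipitate and 9 control reads, its fold of 4.11 (2.01 to 8.39) was at the percentile 96.1 of the chromosome 7 peaks of its label (Fisher's exact test, p = 0.0427, adjusted p = 0.551). The lowest fold of the 10 belonged to EGFR as well. It was 1.64 (1.12 to 2.41) at chr7:55208141-55208550, at the percentile 10.3 (Fisher's exact test, adjusted p = 0.926). EGFR alone thus covered the whole range of folds seen in the members. By cluster the folds were 2.35 (1.71 to 3.21) for the 3 peaks nearer the start and 2.03 (1.73 to 2.38) for the 3 at the end, with overlapping intervals.

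**Figure D3:**
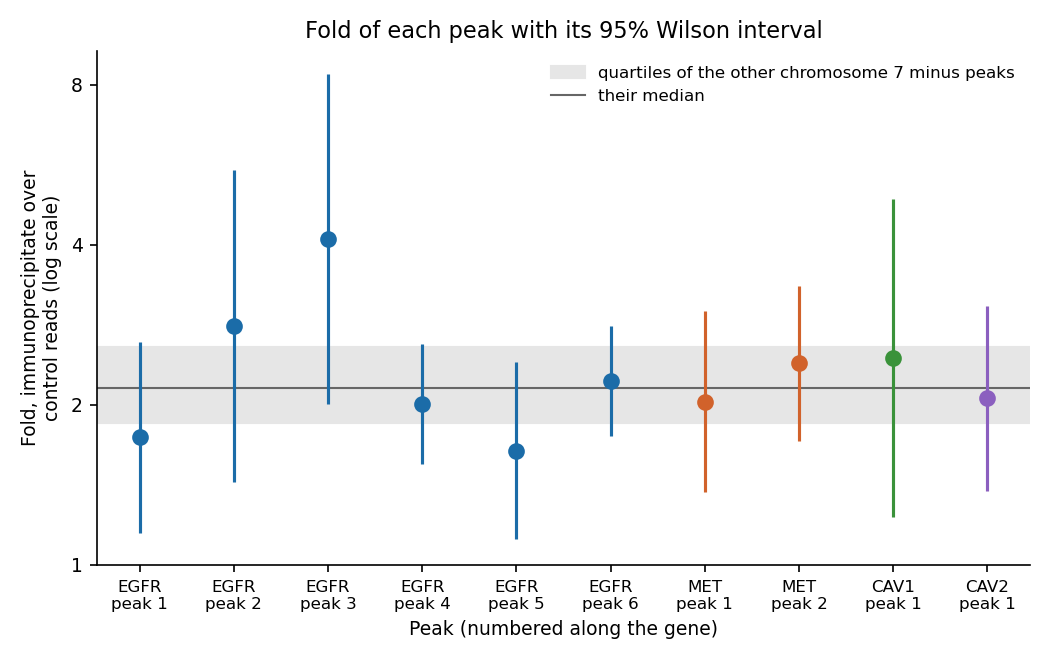
Fold of each member peak (y axis, immunoprecipitate over control reads, log scale) with its 95% Wilson interval, in order along each gene (x axis); the grey band shows the quartiles and the line the median of the 169 other chromosome 7 peaks with the minus label. All 10 intervals reach into the band between 1.85 and 2.57, and the third EGFR peak has the highest fold, 4.11.

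Summed over the peaks of a gene and tested in the same way over all 1936 genes with a peak, 62 genes (3.20%) were past the threshold and none of EGFR, MET, CAV1 and CAV2 was. Their adjusted p-values in Fisher's exact test were 0.743, 0.702, 0.878 and 0.973. Before adjustment 0 of the 4 genes and 14.0% of all genes had p under 0.05. Against the remaining chromosome 7 peaks of the minus label, the fold of EGFR was 0.999 times, that of MET 1.07 times, that of CAV1 1.17 times and that of CAV2 0.982 times that of the rest. Of the 122 genes tested so, 0 (0%) were past the threshold, and 12.3% were under 0.05 before adjustment. No difference in fold was detected for the 4 genes, which does not show that the folds are equal.

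Set beside the 122 genes that had chromosome 7 peaks of the minus label only, the members spread widely in reads, from 27 to 586, and little in fold, from 2.06 to 2.45. EGFR ranked 2 by immunoprecipitate reads, and no other gene but DNAJB6, a co-chaperone, had as many peaks. MET ranked 26, CAV2 70 and CAV1 120. Per kb of peak the order changed, with CAV2 at rank 1 together with HSPB1, EGFR at 19, MET at 38 and CAV1 at 101. CAV2 thus came from 1 short, dense peak, EGFR from several peaks, and CAV1 was low on both scales. By fold the 4 genes ranked 36 (CAV1), 50 (MET), 65 (EGFR) and 71 (CAV2).

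Genes closest in immunoprecipitate reads had folds from 1.58 to 3.11, and the members from 2.06 to 2.45. With 3 such genes taken for each member, the widths of these ranges cannot be compared. Next to EGFR stood PEG10, a gene derived from a retrotransposon, with 641 immunoprecipitate and 299 control reads and a fold of 2.14 (1.87 to 2.46), DNAJB6 with 2.21 (1.86 to 2.63) and SRRT, an RNA-processing factor, with 1.58 (1.35 to 1.85). Next to MET stood REPIN1 and REPIN1-AS1, which share their peaks, with a fold of 2.01 (1.57 to 2.58), and ZNF655 with 2.21 (1.72 to 2.83). CAV1 had as neighbours DNAAF5 and the pseudogene PRSS3P5, which share 1 peak with a fold of 3.11 (1.49 to 6.48), and RBM48 with 2.55 (1.28 to 5.04). CAV2 matched the small heat shock protein gene HSPB1 in both reads and density, 72 immunoprecipitate reads and 175.6 per kb, with a fold of 2.25 (1.49 to 3.40). ARF5 and LOC105375489 share peaks with 72 immunoprecipitate reads and a fold of 2.88 (1.83 to 4.52). SRRT is the only one whose interval lies below the median of all these genes, 2.16.

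The caller's own measures ordered the member peaks in another way than the fold. The deposited p-values of the 10 peaks ran from 1.03e-185 to 3.86e-16. The lowest belonged to the EGFR peak of lowest fold, chr7:55208141-55208550, which also had the highest log odds score, 48.6. The highest belonged to the EGFR peak of highest fold, chr7:55165091-55165500. Its log odds score was -3.98 and its separate control log odds score 5.57. The peak beside it, chr7:55157711-55158120 with a fold of 2.82, had scores of -2.50 and 4.44. These 2 EGFR peaks were the only members with a log odds score below 0, and they had the highest folds of the 10.

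Other chromosome 7 peaks of the minus label behaved alike. Over the 169 of them the log odds score went down with the fold (Spearman's rho -0.57) and up with the control reads per kb (rho 0.93) and the immunoprecipitate reads per kb (rho 0.81). The 2 read densities also went together (rho 0.79). These are descriptions over peaks of 1 pair of libraries, in which the fold and the densities come from the same counts. The 34 of all 179 peaks with a score below 0 had folds with a median of 2.89, and the other 145 of 2.04. No peak of this label had fewer than 24 immunoprecipitate reads, so a peak with few control reads could appear in the list only with a high fold. How far that sets the relation was not tested.

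**Figure D4:**
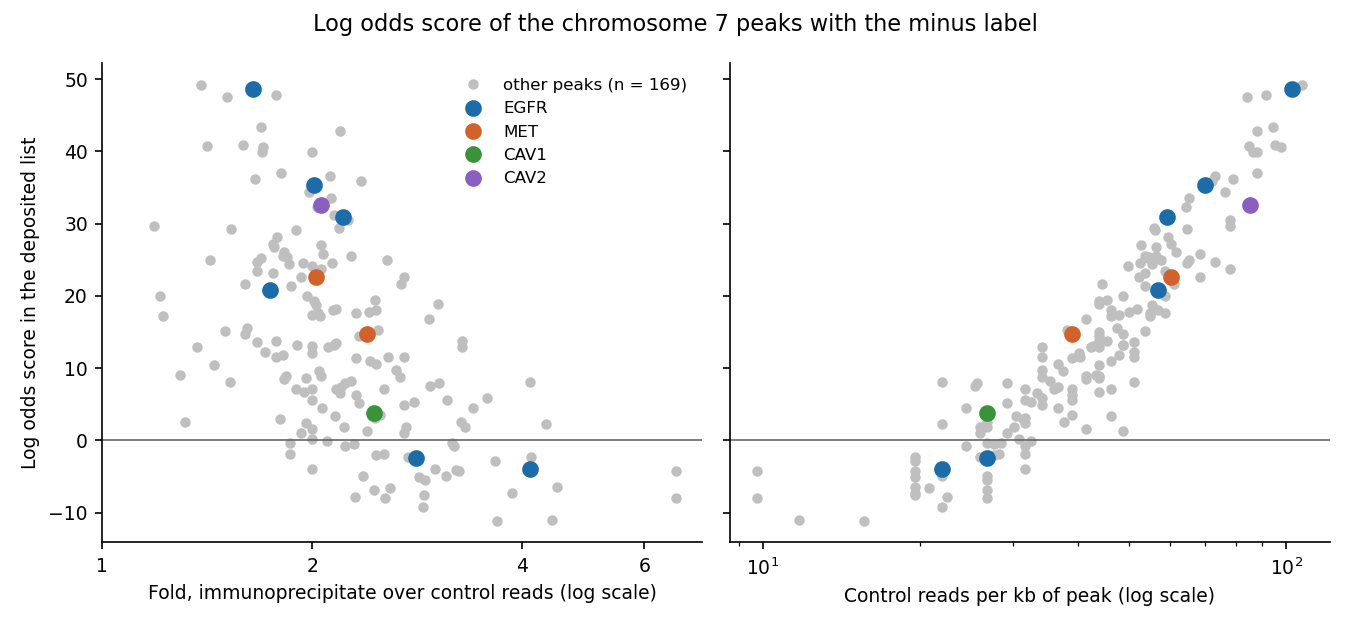
Log odds score in the deposited list (y axis) against the fold (left, log scale) and against the control reads per kb of peak (right, log scale) for the 179 chromosome 7 peaks with the minus label; grey points are the 169 other peaks and coloured points the members. The score goes down as the fold goes up and rises with the control reads per kb, and 2 EGFR peaks lie below 0 at folds of 2.82 and 4.11.

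Other genes around these receptors were taken from lists of 21 receptors, 11 ligands, 25 genes of the path from receptor to AKT and 12 genes of caveolae, members included. Among the receptors EGFR, MET, AXL, EPHA2 and FGFR1 had peaks. AXL, the receptor for GAS6, had 331 immunoprecipitate and 159 control reads and a fold of 2.08 (1.72 to 2.51), and the ephrin receptor gene EPHA2 had 269 and 130 and a fold of 2.07 (1.68 to 2.55). Their folds lay next to that of EGFR. Of the 19 receptors with a known strand, 10 lay where the list has any peak, so for the rest a lack of peaks was fixed in advance. Of those 10 receptors, 4 had a peak. ERBB2, a relative of EGFR on a strand with peaks, had 0, as did ERBB4, PDGFRB, INSR, DDR1 and DDR2.

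Among the ligands HBEGF, which encodes a ligand of EGFR, was the only one with a peak, of 3 with a known strand that lay where the list has any peak. Its 5 peaks held 750 immunoprecipitate and 379 control reads at a fold of 1.98 (1.75 to 2.24). Per kb of peak HBEGF had 267.9 immunoprecipitate reads and EGFR 124.3. Of the genes between receptor and AKT, SHC1, CBL, RICTOR, BRAF and AKT1 had peaks. In that list 14 of the 20 genes with a known strand lay where there is any peak. BRAF, a kinase of the MAPK cascade that also lies on chromosome 7 but with plus-labelled peaks, had 51 and 17 reads and a fold of 3.00 (1.74 to 5.16). SHC1, an adaptor of EGFR, had 170 and 71 reads and a fold of 2.39 (1.82 to 3.16), and RICTOR, a subunit of the complex that phosphorylates AKT, had 167 and 69 and a fold of 2.42 (1.83 to 3.20). AKT1, which the plasmid carries, was the only gene of the 4 lists past the threshold, with fewer immunoprecipitate reads per control read than the rest (fold 1.50). Its reads from the plasmid and from the cells' own gene were not separated.

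Of the 12 caveolae genes, members included, 6 had peaks. Of the 9 with a known strand, 7 lay where the list has any peak, and 3 of these had one. The other 3 genes with peaks had no known strand here. The share of all genes that had a peak was not worked out, so the counts of the 4 lists tell nothing about enrichment. CAVIN1, which encodes the coat protein that shapes caveolae together with CAV1, had 855 immunoprecipitate and 446 control reads and a fold of 1.92 (1.71 to 2.15). PACSIN2, a membrane-bending protein of caveolae, had 143 and 66 reads and a fold of 2.17 (1.62 to 2.90), and CAVIN3 had 90 and 35 and a fold of 2.57 (1.74 to 3.79). Per kb of peak CAV1 had the fewest immunoprecipitate reads of the 6, 65.9, beside 73.2 for PACSIN3 and 347.6 for CAVIN1. By list the median folds were 2.09 for the receptors, 2.39 for the genes from receptor to AKT and 2.11 for the caveolae genes, beside 2.13 (quartiles 1.89 and 2.50) for all 1936 genes with a peak. None of the genes of the 4 lists was found in the peaks for Flag-AKT1 WT. Only 11 receptors, 6 ligands, 5 genes from receptor to AKT and 2 caveolae genes with a known strand lay where that list has peaks. On strands with at least 10 of its peaks lay 2 receptors, 2 ligands, 0 genes from receptor to AKT and 1 caveolae gene. For most of the genes the lack of peaks was thus fixed in advance or tells little.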

How the data were processed

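RIP-seq of MDA-MB-231 cells was analysed from 2 peak lists, 1 per plasmid. The authors deposited for each peak 2 read counts, 1 from the immunoprecipitate and 1 from a control taken to be the input, as whole numbers without normalization. The deposited p-values, adjusted p-values and log odds scores are those of the caller. Reads per kb and an empirical false discovery rate in the lists were not used. The submitters' processing notes name Bowtie2 2.2.8 and hg18; the peak caller and its filters are not given in the sources used here. Library totals are not known, so depth is known only inside peaks. Gene spans are from RefSeq (GRCh38.p14), and strands from its table of gene starts. Sequences of the peaks are not shown.

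Folds used at least 3 control reads, a floor that no member peak met. Fisher's exact tests were run with scipy 1.17.1 on Python 3.11.15, and checked on simulated data. Those data held counting error only, so the check cannot show how the tests behave with other variation between libraries. The genes closest to each member were the 3 with chromosome 7 peaks of the minus label nearest in log2 immunoprecipitate reads. The members and gene lists were chosen with earlier results of these data known. 1 gene of these lists is not reported here.

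Alternatives were an overlap of at least 50% of the peak, an adjusted p of at most 0.001 in the lists, merging of touching peaks, 1 read added to both counts, other comparison peaks, ranking by the deposited p-value, leaving out the AKT1 peaks and an exact binomial test against the median fold.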

Additional observations from a re-analysis of the deposited data

How the results depend on the processing

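Of 60 values under the alternatives, 53 kept their direction and their side of the threshold or stayed within their interval. Numbers of peaks and folds were among them in all cases, and 0 member peaks were past the threshold under any alternative. Merging could change nothing, since no peaks touch, and all 179 minus-labelled peaks of chromosome 7 met the stricter adjusted p. The folds of EGFR and CAV2 lay on either side of the comparison, and none of these differences was past the threshold. EGFR was at 1.07 times the fold of the rest of the list, at 0.999 times with the remaining chromosome 7 peaks as comparison and at 0.959 times the median fold. CAV2 was at 1.05 times, and at 0.982, 0.998 and 0.943 times with chromosome 7 peaks, without the AKT1 peaks and against the median fold. The AKT1 peaks lower the pooled fold of the list from 2.06 to 1.95. Adjusted p-values of the 4 genes were 0.708 or higher under these alternatives. Ranked by the deposited p-value, the best peak of EGFR was at the percentile 99.2 in place of 46.4 for the fold of the gene. That of CAV2 was at 89.7 in place of 43.3, while CAV1 went down from 68.2 to 28.8. The change of CAV1 was not counted as a move only because the interval of its fold percentile is so wide that nearly any value lies inside. Over the 179 peaks the -log10 of the deposited p-value rose with control reads per kb (Spearman's rho 0.94) and with immunoprecipitate reads per kb (rho 0.82). It went down with the fold (rho -0.58). With 9 to 97 control reads per member peak, depth limits the folds, and the interval of CAV1 spans nearly the whole range of the chromosome 7 peaks (percentiles 1.68 to 98.9). No paired analysis was possible because each group has 1 library.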
